A study of Mus musculus with 2 samples.

Results

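Stitched regions are runs of open chromatin sites that lie close together away from protein-coding promoters. The analysis took 213 of them from DNase-seq peaks of mouse hippocampus, out of 21835 stitched sets of any size. A peak entered when it was in replicate 1, overlapped a peak of replicate 2 by at least 1 bp and lay more than 1 kb from every protein-coding transcription start site (TSS). Neighbouring peaks on chromosomes 1 to 19 were joined across gaps of at most 12500 bp, and regions of 6 or more peaks were kept and ranked by the peak value summed over both libraries. Peaks of a single library, with no partner required, gave 1284 regions from replicate 1 and 719 from replicate 2. The regions hold 1869 of 32473 shared distal peaks, or 5.76%, and their spans add up to 3.78 Mb, or 0.153% of the autosomes. The remainder were 6226 sets of 2 to 5 peaks and 15396 lone peaks. The regions were chosen by peak positions and ranked by peak values of both libraries, so counts of peaks, spans and summed values are given as descriptions.

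DNase I cuts DNA most readily where nucleosomes are displaced, so its cuts mark promoters, enhancers and other regulatory sites, and a bound protein leaves a short protected footprint inside such a site. Enhancers often occur in groups, and dense groups near genes that define a cell type, many of them genes of transcription factors, are known as stretch or super-enhancers when they also carry strong coactivator or acetylation signal. In the hippocampus, the brain structure of the dentate gyrus and CA fields, such genes include those of neuronal transcription factors and of immediate-early factors that respond to activity. No acetylation or coactivator data were used here, and the regions are called stitched regions only.

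The tissue came from B6CASTF1/J mice, a hybrid between a C57BL/6J and a wild-derived CAST parent, 25 days old and labelled male, and the layer of the hippocampus was not named. The 2 libraries form 1 group, biological replicates 1 and 2, with no treatment and no second genotype. The labels name distinct tissue samples but list the same donor for both, so the difference between the libraries may be technical. Replicate 1 had 93545 peaks over 23.3 Mb and replicate 2 had 79144 over 18.04 Mb. Both had peaks on chromosome Y, 40 and 39, but the second also had 3 peaks at the promoter of Xist, the RNA of the inactive X chromosome, with a highest value of 1.01, and the first had none. Wherever values of the libraries are set against each other, the second is therefore named by its label, as the library labelled male replicate 2. The peak value is the authors' signal height, of unstated scaling, so the number of cuts behind a peak is unknown. In bulk tissue, a site open in fewer cells and a site less open in each cell give the same value.

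Peaks of 1 library can overlap each other, and the rule counts them separately. In 121 of 213 regions at least 2 member peaks touched or overlapped, and merging them left 1662 separate peaks of 1869. With touching peaks merged 176 regions still had 6 or more, and with neighbours at most 100 bp apart counted as 1 the number was 153. All 15 of the highest regions were among these 153.

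The strongest member peaks of the 6 highest regions show what the sites look like in sequence, and they are printed because these regions have the highest sums over both libraries. Each is the plus strand of mm10 read from GRCm38.p6, the whole peak or its middle 300 bp, and capitals mark bases inside a footprint called in both libraries.

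Region 1, Mef2c side, chr13:83745041-83745340: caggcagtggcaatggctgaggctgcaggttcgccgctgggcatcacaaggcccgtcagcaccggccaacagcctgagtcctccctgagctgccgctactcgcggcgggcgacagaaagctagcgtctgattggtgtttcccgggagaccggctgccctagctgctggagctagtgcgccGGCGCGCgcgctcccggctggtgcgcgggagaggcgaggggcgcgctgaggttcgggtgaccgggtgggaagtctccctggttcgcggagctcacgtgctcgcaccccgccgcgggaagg
Region 2, Thra and Nr1d1, chr11:98773871-98774170: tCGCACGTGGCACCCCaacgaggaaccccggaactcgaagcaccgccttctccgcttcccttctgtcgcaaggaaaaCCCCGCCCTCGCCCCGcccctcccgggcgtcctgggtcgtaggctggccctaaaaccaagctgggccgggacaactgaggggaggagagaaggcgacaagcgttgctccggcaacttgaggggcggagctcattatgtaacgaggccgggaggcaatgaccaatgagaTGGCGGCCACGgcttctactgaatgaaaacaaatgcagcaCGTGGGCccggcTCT
Region 3, Malat1, chr19:5803311-5803610: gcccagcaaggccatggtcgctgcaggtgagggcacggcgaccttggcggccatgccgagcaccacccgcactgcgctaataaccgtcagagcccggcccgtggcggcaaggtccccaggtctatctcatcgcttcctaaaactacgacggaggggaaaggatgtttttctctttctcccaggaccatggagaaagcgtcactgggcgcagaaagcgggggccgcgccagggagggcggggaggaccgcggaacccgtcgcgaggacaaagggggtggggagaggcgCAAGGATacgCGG
Region 4, tRNA genes near Abt1, chr13:23432981-23433140: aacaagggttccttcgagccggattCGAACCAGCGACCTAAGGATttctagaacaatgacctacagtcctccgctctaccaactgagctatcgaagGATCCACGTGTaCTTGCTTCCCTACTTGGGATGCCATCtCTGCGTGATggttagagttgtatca
Region 5, Kdm6b, chr11:69411121-69411420: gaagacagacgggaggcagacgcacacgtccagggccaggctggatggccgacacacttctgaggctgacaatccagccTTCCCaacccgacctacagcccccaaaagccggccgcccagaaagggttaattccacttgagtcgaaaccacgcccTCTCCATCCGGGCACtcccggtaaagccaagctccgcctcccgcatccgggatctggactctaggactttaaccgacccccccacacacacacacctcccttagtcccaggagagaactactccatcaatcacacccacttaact
Region 6, Nr2f1, chr13:78201561-78201840: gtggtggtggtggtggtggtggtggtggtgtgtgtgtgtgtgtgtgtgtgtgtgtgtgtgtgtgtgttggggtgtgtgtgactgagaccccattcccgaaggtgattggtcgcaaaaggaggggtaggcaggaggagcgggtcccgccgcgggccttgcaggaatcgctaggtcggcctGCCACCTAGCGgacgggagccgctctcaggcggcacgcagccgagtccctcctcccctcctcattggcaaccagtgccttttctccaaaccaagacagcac

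These 6 peaks differed in composition. The GC content was 70.3% with 33 CpG in the peak on the Mef2c side, and 49.4% with 8 CpG in the peak of region 4, which covers a tRNA-Tyr gene (n-TYgta7, chromosome 13 from 23432990 to 23433077, minus strand). The peak of region 4 had 66 bases in shared footprints of 160 in all, and the peak on the Mef2c side had 7 of 300. In the peak of region 4 the letters GGTTCGA, the core of the B box inside tRNA genes, lie on the minus strand from base 25, with 6 of 7 bases in a shared footprint. The intronic peak of region 2 holds CACGTG, the E box that clock proteins, USF and MYC can bind, at bases 4 and 284, with 6 and 4 of its 6 bases in shared footprints. It also holds GGGCGGG, the letters of the SP and KLF family, on the minus strand at base 79 with 7 of 7 bases in a shared footprint. Positions are counted from 1 at the start of the printed sequence. A match of letters is a description and not a binding site.

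The highest region lay on chromosome 13 from 83712781 to 83745460, 59.9 kb from the nearest protein-coding TSS, a transcript start of Mef2c. Every annotated transcript of a gene gave a TSS, so the distance to the main promoter of a gene can be larger. Mef2c encodes a transcription factor of neuronal differentiation and synapse number. The region had 24 peaks in replicate 1 against 25 in the library labelled male replicate 2, with sums of 35.6 and 31.9. All 24 were intergenic with respect to protein-coding genes, and 11 were within 1 kb of a long noncoding RNA (lncRNA) TSS. The region overlaps C130071C03Rik, the host transcript of the microRNA gene Mir9-2, and Gm26803. Its single peaks ran from 0.692 to 3.31 in replicate 1 (median 1.35) and from 0.496 to 2.98 in the other library (median 1.06), so that no single peak made up over 9.29% of the replicate 1 sum.

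The second region, chromosome 11 from 98731381 to 98789400, was also the widest at 58.0 kb. It covers Thra, the gene of thyroid hormone receptor alpha, and Nr1d1, which encodes the circadian repressor REV-ERB alpha and is read from the opposite strand. The libraries had 22 and 25 peaks there and sums of 31.0 and 29.1, with 9 peaks in introns and 10 between genes. The third region, chromosome 19 from 5786541 to 5818260, covers Malat1, an abundant nuclear lncRNA. It had 17 and 20 peaks and sums of 26.0 and 24.4, and 5 peaks lay within 1 kb of a lncRNA TSS. The fourth region, chromosome 13 from 23430761 to 23450780, holds 9 tRNA genes near Abt1, and each of 9 of its 13 peaks overlapped one. Its sums were 25.3 and 24.02.

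**Figure D1:**
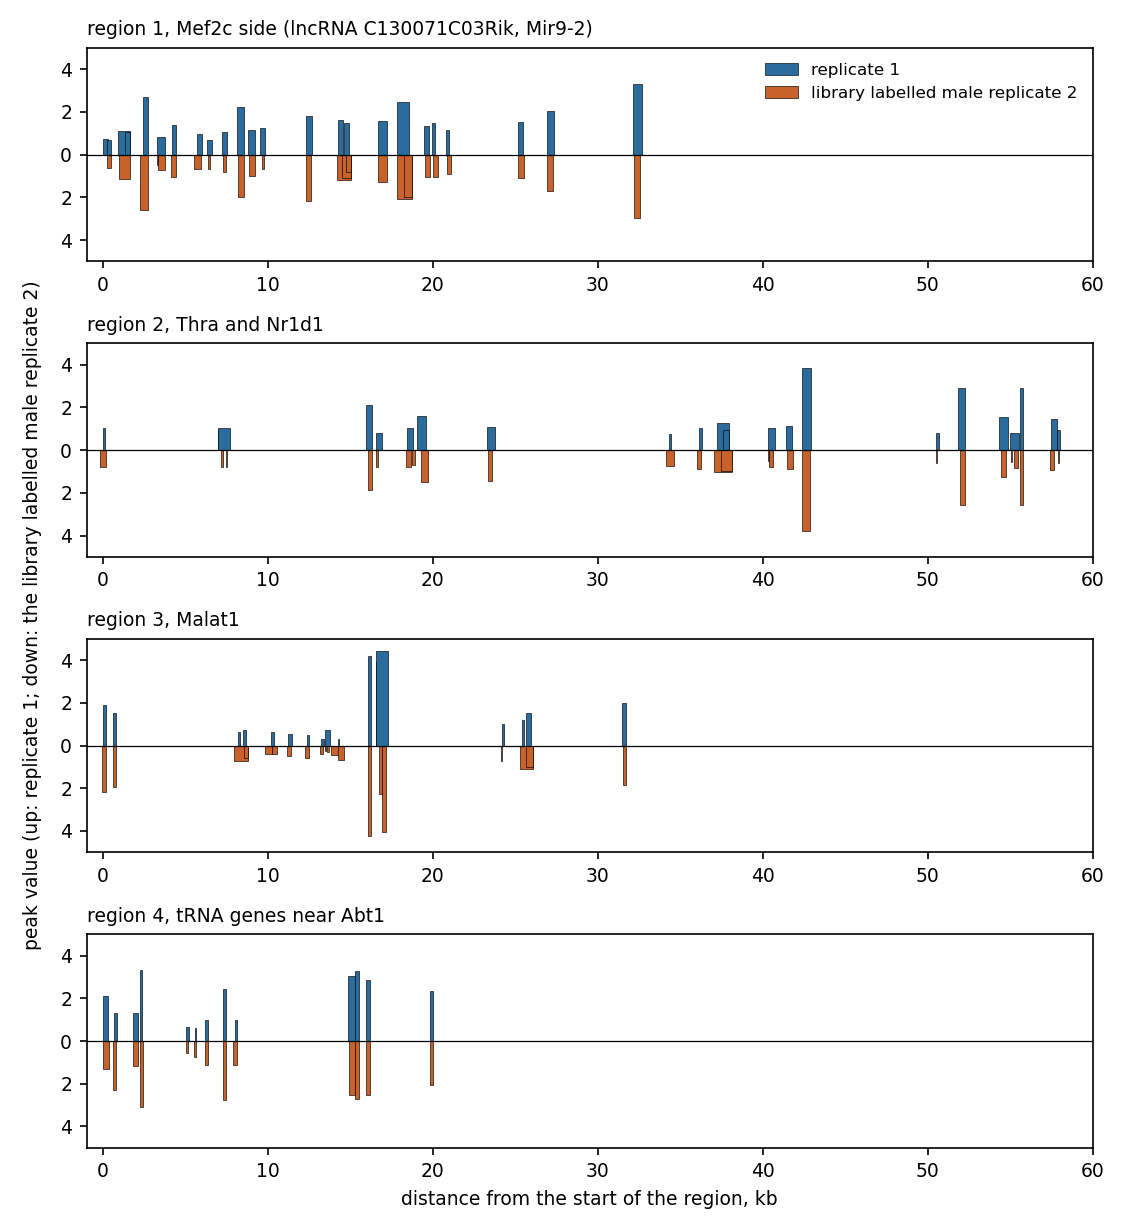
Peaks of the 4 highest regions, with distance from the region's start in kb on the x axis and the authors' peak value on the y axis, up for replicate 1 and down for the library labelled male replicate 2. Each bar spans 1 peak. The rule keeps only peaks that overlap a peak of the other library, so the shared places follow from it. Heights were also similar, in regions chosen by the sum of both libraries. The region of Malat1 has a pair of tall peaks near 17 kb, while peaks on the Mef2c side are spread along 32.7 kb.

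A pair of further regions in the leading group lies at transcription factor genes that pattern the cortex and hippocampus. The region at Nr2f1, which encodes the nuclear receptor COUP-TF1, spans 49.2 kb on chromosome 13 from 78162981 and had 20 and 23 peaks with sums of 24.7 and 23.7. The region at Pou3f3, a POU homeodomain factor gene of upper-layer and hippocampal neurons, overlaps the neighbouring lncRNA genes Pantr1 and Pantr2. It had 14 and 17 peaks with sums of 20.97 and 18.7. In both, peaks at lncRNA start sites were part of the set, 4 at Nr2f1 and 6 at Pou3f3.

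Genes of activity and of the daily clock were also among the 15 highest. The region at Fosb, an immediate-early gene of the AP-1 family, spans 47.8 kb on chromosome 7 from 19295921, with 12 peaks in each library. It summed to 19.2 in replicate 1 against 21.3 in the library labelled male replicate 2, so it was lower in replicate 1, unlike most regions. The region at Per1, a core clock gene that light and activity also induce, had 11 peaks in each library and sums of 18.04 and 17.98, and 4 of its peaks overlapped tRNA genes. The region at Kdm6b, which encodes a histone demethylase of lysine 27 on histone H3, had 18 peaks in each library and sums of 26.0 and 22.6.

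Other regions among the 15 highest were of mixed kinds. The region overlapping Lncppara, 55.4 kb from Ppara, the gene of a nuclear receptor of fatty acid metabolism, had sums of 23.1 and 16.8. Regions at Skida1 and Mllt10 (19.96 and 15.6), 11.2 kb from Calcoco1 (20.2 and 14.9) and 54.9 kb from Lrrc74a (18.9 and 16.8) also belonged to this group, as did the region at Sfi1, the gene of a centrin-binding centrosomal protein (21.6 and 22.8). In the Sfi1 region 7 of 10 peaks, with 82.0% of the replicate 1 sum, had a near-identical copy elsewhere in the reference, which limits how firmly that value belongs to this place.

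**Figure D2:**
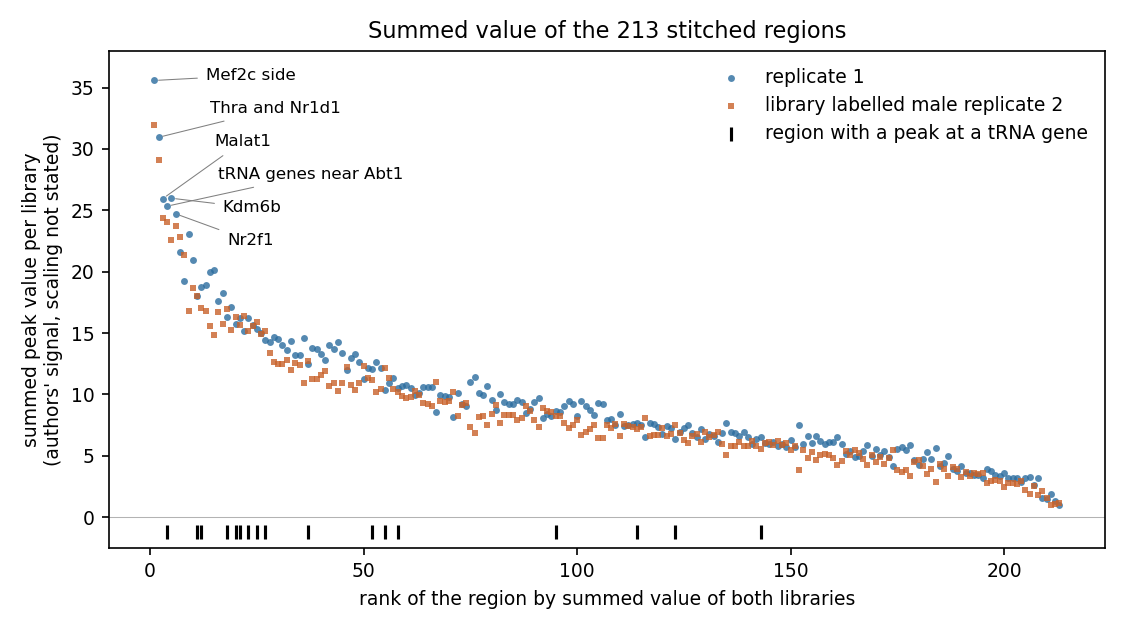
Summed peak value of each of the 213 regions (y axis, authors' signal) against its rank by the sum of both libraries (x axis), with 1 point per library and ticks under the ranks of the 17 regions that have a peak at a tRNA gene. Values fall from 35.6 and 31.9 at rank 1 to 0.996 and 1.12 at rank 213, and 9 of the 17 ticks stand among the 30 highest.

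Across the 213 regions the spans ran from 3.46 to 58.0 kb with a median of 14.9 kb, and the number of replicate 1 peaks from 6 to 26 with a median of 8. The median sum was 8.11 in replicate 1 against 7.31 in the library labelled male replicate 2. The median share of the strongest peak in a region's replicate 1 sum was 23.5%, with a range from 7.97% to 54.5%. Merged peaks covered a median of 16.0% of a span. The most peaks did not go with the highest sum: a region at B4galt5, a galactosyltransferase gene, had 26 and 25 peaks but sums of 12.96 and 10.8, and one at Gm20219 had 23 and 25 peaks and sums of 11.3 and 10.4. The widest after Thra were the regions at Nr2f1, near Foxo6 (48.5 kb), at Fosb and near Rhbg (45.9 kb); the last covers Mir9-1.

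Regions were unevenly spread over the genome. Chromosome 11 had 28 of 213, or 13.1%, beside 7.02% of all shared distal peaks and 7.88% of autosomal protein-coding genes. On it 4 regions lay within 0.383 Mb, from 69036881 to 69419800, at Ctc1, Borcs6, Per1 and Kdm6b, with 45 peaks and 15 tRNA genes in all. On chromosome 13, 5 regions from 21158901 to 23526660, nearest to Trim27, Gpx5, Abt1 and Hist1h4h, held 49 peaks and 37 tRNA genes. Of all regions 38 had another within 100 kb.

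The libraries ranked the regions in a similar order. The Spearman correlation of their sums across the 213 regions was 0.957, a description over regions that share 1 rule and 1 pair of libraries. Of the 15 highest by each library 12 were the same, and of the 30 highest 27. The log2 ratio of replicate 1 over the library labelled male replicate 2 had a median of 0.15 and ran from −0.48 to 0.99, and 202 regions were within 1.5-fold. It was above 0 in 161 regions, or 75.6%, beside 58.1% of the smaller sets, whose median was 0.08. The rule starts from replicate 1 peaks, so the direction of this ratio is not independent of the rule.

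The regions that differed most between the libraries were not the highest ones. Replicate 1 was highest relative to the other library near Qk, an RNA-binding protein gene of glia (5.67 and 2.86), in a region 197 kb from Opa1 (7.51 and 3.88) and in one near Wnt7a (1.87 and 1.02). The library labelled male replicate 2 was highest relative to replicate 1 in a region at Ighmbp2 (1.55 and 2.16), 92.8 kb from Lclat1 (4.19 and 5.50) and near 4930467E23Rik (8.60 and 11.03). In the last of these 6 of 7 peaks had near-identical copies in the reference. The Wnt7a region had 6 peaks in replicate 1 but 3 separate ones after merging.

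Peaks of the regions lay in other places than the rest of the shared distal peaks. By their middle base 62.2% were between protein-coding genes (95% exact interval 59.9 to 64.4) and 25.8% in introns (23.9 to 27.9), beside 54.1% and 40.1% of lone peaks. Coding exons held 6.10% and exons outside the coding part 5.89%, beside 3.26% and 2.46%. A peak within 1 kb of a lncRNA TSS was found in 10.01% of members (8.68 to 11.5), 6.07% of peaks in sets of 2 to 5 and 3.16% of lone peaks. A tRNA gene was overlapped by 4.01% (3.17 to 5.004), 0.473% and 0.0585%. Intervals cover counting error only and take peaks as independent, which neighbours are not. The sites are thus distal to protein-coding promoters but in part at promoters of other kinds: 68 of 213 regions had a peak at a lncRNA TSS and 17 had one at a tRNA gene. Regions built from replicate 1 alone had 253 of 1284 at a lncRNA TSS and 26 at a tRNA gene, and those from replicate 2 alone 153 of 719 and 21.

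**Figure D3:**
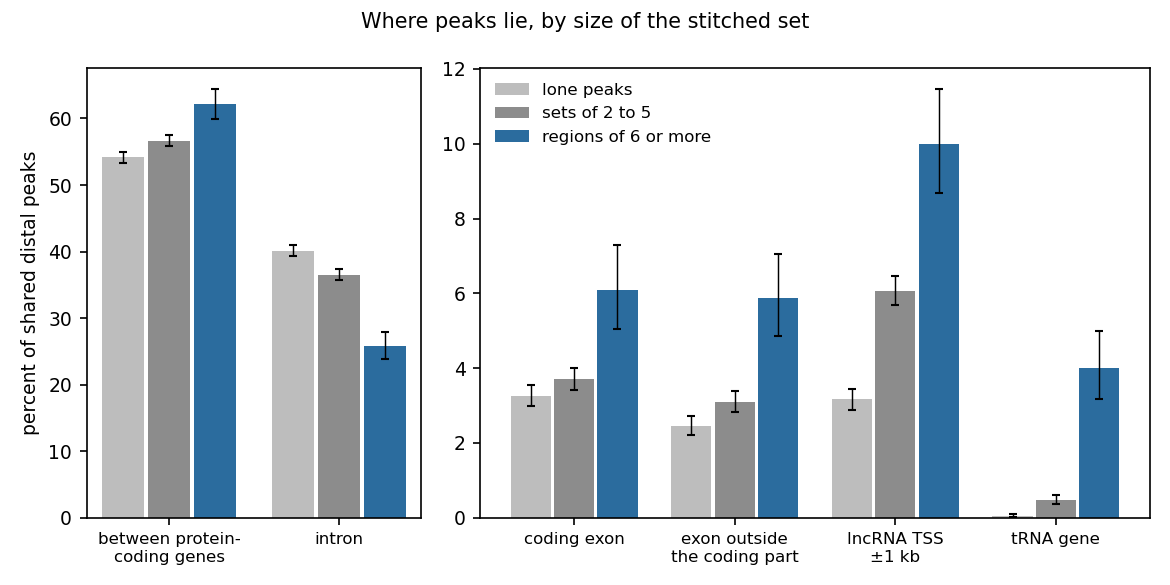
Percent of shared distal peaks (y axis) in each class of place (x axis), for lone peaks, sets of 2 to 5 and regions of 6 or more, with 95% exact binomial intervals as error bars. Introns hold 40.1%, 36.5% and 25.8%, and tRNA genes 0.0585%, 0.473% and 4.01%.

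tRNA genes are short, are transcribed by RNA polymerase III from a promoter inside the gene (the A and B boxes) and occur in genomic clusters. Of 386 autosomal tRNA genes 190, or 49.2%, overlapped a peak of both libraries. Of the same 386, 75, or 19.4%, overlapped a member peak, and 97 overlapped a region's span. These 97 covered 19 tRNA products, with 9 genes each for tRNA-Ala, tRNA-Gly, tRNA-Leu and tRNA-Val and 1 for tRNA-Trp. The regions with a tRNA peak had a median sum of 14.4 in replicate 1 against 15.2 in the library labelled male replicate 2, beside 7.58 and 6.90 for the 196 others. Their median log2 ratio was 0.04 and that of the others 0.17. The 75 peaks at tRNA genes had a median value of 1.87 and 2.01, where other member peaks had 0.866 and 0.735. They also held more footprints, 14.7 and 13.5 per kb beside 7.66 and 5.64, at a GC content of 48.8%. Only 1 of the 75 had a near-identical copy by the criterion used (90% or more identical bases along 80% or more of the peak). These peaks had a median width of 238 bp, so a copy of the short tRNA gene alone would rarely meet it. The count therefore does not tell how many of the tRNA genes themselves have copies.

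After region 4, tRNA regions with high sums included the one at Per1 and a region of 4.94 kb near Ctc1 with 6 peaks and 6 tRNA genes (16.3 and 17.0). It had the highest sum of all 69 regions with exactly 6 peaks. A region near Hfe2 (15.8 and 16.3) and one at Cfap126 (16.2 and 15.7) followed, and each held 5 tRNA genes. The lowest tRNA region by rank, near BC107364, had sums of 6.55 and 5.54.

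Several noncoding RNAs of neurons overlapped regions. Of 2054 autosomal genes that GENCODE types as microRNA, 27, or 1.31%, overlapped a region, in 15 regions; 1 of the 27 carries a tRNA name. Both Mir9-2 (region 1) and Mir9-1 (region 26, 14 and 17 peaks, sums 15.03 and 14.9) encode miR-9, a microRNA of neural progenitors and neurons. Mir124a-1, whose product is a microRNA of neurons, lay with its host lncRNA in region 17 (21 peaks in each library, sums 18.3 and 15.7). Mir124a-3 lay in region 22 (15.2 and 16.4) and Mir124a-2 in region 142 (6.34 and 5.76). Mir7b lay in region 112 (7.48 and 7.42), the cluster of Mir23a, Mir27a and Mir24-2 in region 81 (8.75 and 9.10), and Mir379 and its neighbours, a maternally expressed cluster, in region 198 (3.44 and 3.03). Of the lncRNA genes, Miat overlapped region 41 (12.8 and 11.9). Neat1, the scaffold of paraspeckles, overlapped region 60 (10.8 and 9.71), which spans only 5 kb.

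Mature sequences were found in the RefSeq table (GRCm38.p6) for 20 of the 27 genes. Those of miR-9, miR-7b and the cluster in region 81 are given with the seed, bases 2 to 8, in capitals. Mir9-1 and Mir9-2 give the same miR-9-5p and miR-9-3p, and none of the other seeds shown is shared.

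mmu-miR-9-5p: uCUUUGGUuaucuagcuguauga
mmu-miR-9-3p: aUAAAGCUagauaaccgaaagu
mmu-miR-7b-5p: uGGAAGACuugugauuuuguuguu
mmu-miR-23a-3p: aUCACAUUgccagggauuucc
mmu-miR-27a-3p: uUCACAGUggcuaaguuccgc
mmu-miR-24-3p: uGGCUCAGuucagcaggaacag

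Protein-coding genes were given to regions by the nearest TSS of any of their annotated transcripts. The 213 regions had 205 nearest genes, 0.985% of 20807 autosomal protein-coding genes, and overlapped the bodies of 165, or 0.793%. A protein-coding TSS lay inside the span of 72 regions, 81 regions overlapped no protein-coding gene, and 32 were over 50 kb from the nearest TSS. The nearest gene is a position, and whether a region acts on it was not measured.

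Of 48 genes of hippocampal and neuronal transcription factors 11 were nearest to a region, or 22.9%, beside 0.985% of all genes. Those not yet given, with the higher region where a gene was nearest to 2, were Nfia (9.26 and 6.45), Nfib (9.25 and 6.45) and Nfic (9.09 and 9.29) of the NFI family, Nr2f2 (13.7 and 10.9), Pou3f2 (10.6 and 9.26), Klf9 (10.6 and 9.07), Id2 (9.40 and 8.33) and Meis2 (5.68 and 5.77). Of 14 genes of excitatory neurons 4 were nearest, or 28.6%, Mef2c among them. The others were Fezf2 (9.36 and 7.91) and Tbr1 (6.07 and 6.02), both transcription factor genes of deep-layer neurons, and Nptx1, a secreted pentraxin gene of excitatory synapses (7.89 and 7.496). Of 21 activity-regulated genes 3 were nearest, or 14.3%, Fosb, Per1 and Egr1 (7.20 and 6.12).

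In the other lists between 0 and 2 genes were nearest to a region. For synaptic and calcium signalling it was 2 of 53, or 3.77%, Shank1, a scaffold gene of the postsynaptic density (13.6 and 12.8), and Gria1, an AMPA receptor subunit gene (3.31 and 2.92). Oligodendrocytes and their precursors had 2 of 16, Mobp, a myelin protein gene (6.36 and 6.96), and Pdgfra, the growth factor receptor of the precursors (3.56 and 3.65). Single genes were nearest for ependymal cells (1 of 9, or 11.1%: Rsph1, 4.42 and 3.96) and immature neurons (1 of 11, or 9.09%: Sox4, 14.0 and 12.4). Housekeeping genes had 2 of 16, Ywhaz (7.43 and 7.57) among them, and other brain regions had 2 of 26, or 7.69%, Sim1 (5.68 and 3.66) and Otp (7.70 and 5.05), both factor genes of the hypothalamus. These shares too lie above 0.985%, housekeeping genes included, and differences between lists were not tested. None of the 14 dentate granule cell, 9 CA1, 11 CA2 and CA3, 17 inhibitory neuron, 14 astrocyte, 15 microglia, 16 endothelial and mural, and 21 liver, muscle and germ line genes was nearest to a region. At 0.985% a list of such a size holds fewer than 1 gene, so a count of 0 lies near the background.

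Promoter peaks played no part in the rule, apart from being left out of it. Of the 205 nearest genes 176, or 85.9% (80.3 to 90.3), had a promoter peak in both libraries, beside 63.9% of all autosomal protein-coding genes. Where both libraries had one, its median value was 2.25 and 2.21, beside 2.26 and 2.15 over all genes. The share was above that of all genes, while the median heights lay close to those of all genes. Of the 70 nearest genes with a TSS inside the span 67 had promoter peaks in both libraries, and of 135 outside it 109. Those with none included Mobp, Rtl1, Lrrc74a and Trpm1. As a check of the tissue, a promoter peak in both libraries was found for 13 of 14 excitatory neuron genes, 10 of 14 astrocyte and 7 of 16 oligodendrocyte genes. It was found for 4 of 15 microglia, 5 of 16 endothelial and mural, and 5 of 21 liver, muscle and germ line genes. Inhibitory neuron genes had 8 of 17, genes of other brain regions 10 of 26 and housekeeping genes 16 of 16.

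Footprints did not enter the rule either. Members had 7.90 footprints per kb of merged peak in replicate 1 against 5.91 in the library labelled male replicate 2. Sets of 2 to 5 had 8.55 and 6.75, and lone peaks 8.51 and 6.84. At least 1 footprint in both libraries was found in 62.0% of members, 68.8% of peaks in sets of 2 to 5 and 67.3% of lone peaks. Since higher peaks hold more footprints, peaks were also divided into 4 equal classes of the replicate 1 value. In these classes peaks were not merged, so bases in overlapping peaks count more than once. In the highest class members had 10.6 and 8.52 per kb and others 11.1 and 9.34, and in the lowest class members had 3.69 and 2.16 and others 5.51 and 4.57. The density was lower in members in all 4 classes of both libraries. Member peaks were wider in all 4 classes, with a median of 340 bp beside 240 bp in the highest one, and there they held more footprints each, 4.16 and 3.34 beside 3.37 and 2.83. In the lowest class they held 1.03 and 0.605 each, beside 0.992 and 0.822. In the library labelled male replicate 2 members held fewer footprints each in every class but the highest. Members were thus wider where their density was lower, and the part of width in the density was not tested.

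**Figure D4:**
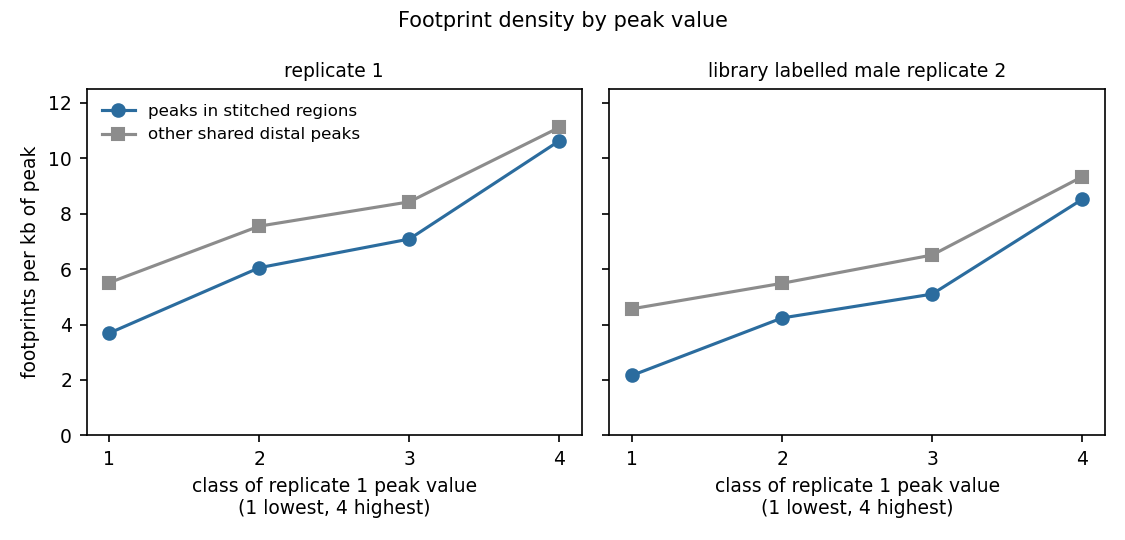
Footprints per kb of peak (y axis) in 4 equal classes of the replicate 1 peak value (x axis), for peaks in stitched regions and other shared distal peaks, with 1 panel per library. Overlapping peaks were not merged. The members' line lies below the other line at each of the 4 points in both panels, and the lines are closest in the highest class.

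The stretches between neighbouring peaks of a set were examined with the authors' FDR per base. Outside every peak, 8.25% of gap bases in regions had an FDR under 0.05 in replicate 1 against 6.37% in the library labelled male replicate 2. In sets of 2 to 5 the values were 2.87% and 2.08%. Nearly all such bases were flanks of peaks: at least 500 bp from every peak the shares were 0.0743% and 0.0373%, beside 0.0186% and 0.0155%, or 1.25 and 0.627 kb of 1.68 Mb in the regions. Gaps in regions were also shorter, with a median of 646 bp beside 2260 bp. Of 2.78 Mb of gap bases in regions 1.68 Mb lay at least 500 bp from every peak, beside 22.1 of 29.2 Mb in sets of 2 to 5. The part of gap length in these shares was not tested.

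Member peaks were richer in GC and CpG. Their GC content was 56.0%, beside 54.2% in sets of 2 to 5 and 52.7% in lone peaks, and they had 35.4 CpG per kb, beside 28.4 and 23.0. With the 17 tRNA regions set aside, members had 56.3% GC and 34.8 CpG per kb. The GC difference between members and all other shared distal peaks was 2.63 percentage points as a mean of the libraries, but 0.60 in regions built from replicate 1 alone and 0.56 in those from replicate 2 alone, and 0.94 with the authors' shorter lists. A larger share also stood in the authors' shorter peak list, whose peaks each held a base with an FDR of at most 0.001, at 69.9% beside 56.7% and 52.5%.

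Motifs were counted on both strands in the 200 bp at the middle of each peak, and shares are of all such windows. CAGATG, the E box form of NEUROD factors, was in 16.7% of member windows (15.1 to 18.5) and 23.9% of windows of other shared distal peaks (23.4 to 24.4). TTGGCA, the single NFI site, was in 10.8% (9.44 to 12.3) and 17.6% (17.2 to 18.03). TGACAG, of MEIS and PBX, was in 14.2% and 17.6%, and ACANNNTGT, of the glucocorticoid receptor, in 4.49% and 6.52%. These were lower in members also among peaks of the highest class of value, where CAGATG was in 13.3% and 20.1% and TTGGCA in 10.1% and 14.2%. The AP-1 form TGANTCA was in 5.40% and 6.79%, and the CTCF core AGNGGGCNC in 7.17% and 8.69%.

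Higher in members was GGGCGGG, of the SP and KLF family, at 7.49% (6.34 to 8.78) beside 4.69% (4.45 to 4.93); in promoter peaks it was in 23.4%. GGTTCGA of the tRNA B box was in 3.32% and 0.386%, and in 0.669% of members that do not overlap a tRNA gene. CACGTG was in 4.55% and 4.15%, with overlapping intervals. Promoter peaks had CAGATG in 10.1% and TTGGCA in 8.22%, lower than in members. GC content differs between the groups, for GGGCGGG in the direction of its difference. The part of GC content in the motif differences, higher or lower in members, was not tested. A motif's letters say nothing of which factor was bound.

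**Figure D5:**
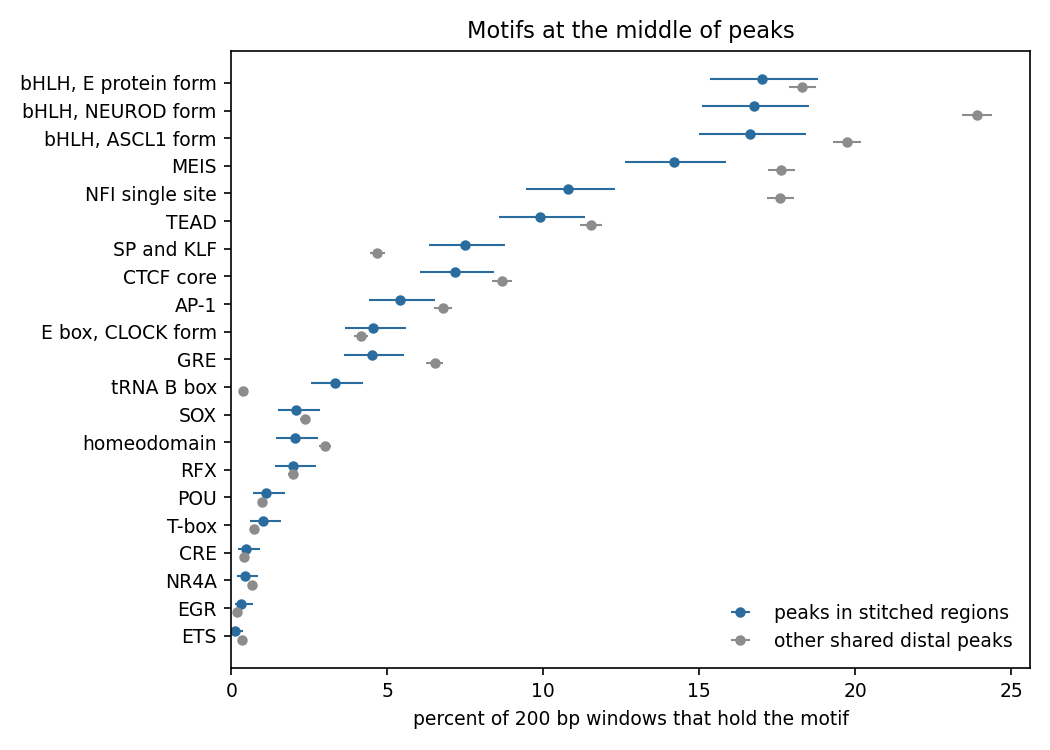
Percent of 200 bp windows at the middle of peaks that hold each motif drawn (x axis), for peaks in stitched regions and other shared distal peaks, with 95% exact binomial intervals. MEF2 (0.589% in regions, 0.395% elsewhere), SRF (0.803% and 0.712%) and the full NFI site (0.0535% and 0.0882%) are not drawn. The NEUROD form of the E box and the single NFI site lie lower in the regions (16.7% and 10.8%) than elsewhere (23.9% and 17.6%), and the SP and KLF motif and the tRNA B box lie higher.

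Sequence copies touched few regions but made up some of them. Of 1869 member peaks 57, or 3.05%, had a near-identical copy elsewhere in the reference, in 17 regions. In 6 regions such peaks held at least 50% of the replicate 1 sum: those nearest to Akap1, Gm15319 and Gm21119, where all peaks were copied, and those nearest to 4930467E23Rik, Arl4d and Sfi1. Without copied peaks 203 regions still had 6 or more.

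At the limit of the rule, regions just inside and sets just outside overlapped in value. The 69 regions with exactly 6 peaks had median sums of 6.78 and 6.45, from 1.87 and 1.02 near Wnt7a to 16.3 and 17.0 near Ctc1. The 182 sets with exactly 5 peaks had 4.74 and 4.41, from 0.664 and 0.664 near Rasgrf1, an imprinted gene of neuronal signalling, to 14.5 and 13.05 near Scaf8.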

How the data were processed

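Each of the 2 libraries was analysed from 4 deposited lists, which hold peaks, a shorter selection of peaks, footprints, and an FDR by base. The authors made each from that library's own alignments to mm10, with no pooling, per the file headers. Aligner, callers and versions are not given in the sources. Column 7 of the peak lists is the authors' signal, a peak height whose scaling is not stated, and it was summed as deposited. The FDR values are the authors' own and list bases under 0.05. The footprint lists, as deposited, carry a constant in their score column, and only their intervals were used.

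TSS, gene types and microRNA genes came from GENCODE M21, and tRNA genes, mature microRNA sequences and genome sequence from RefSeq GRCm38.p6. Python 3.11.15 with pandas 2.3.3, numpy 2.4.6 and scipy 1.17.1 served for overlaps and stitching, blastn 2.17.0 for sequence copies and matplotlib 3.10.9 for figures. Stitching was tested on simulated data, where 1117 of 1117 regions were recovered. The simulated peaks did not overlap each other within a library, unlike many real ones, so only the joining code was checked. With 1 group and members chosen by the measured peaks, no test was made: shares carry exact (Clopper-Pearson) 95% intervals and stand beside all other features.

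Members and lists (17 lists, 338 entries, 22 motifs) were chosen with earlier results of these data known. The rule for names takes the 15 highest regions, the 5 with most peaks, the 5 widest, up to 4 genes per list, the 3 highest and 3 lowest ratios, and the highest and lowest sets of 6 and of 5 peaks. Names of further transcription factor genes, noncoding RNAs, tRNA regions, copied regions and genes without promoter peaks, 2 motifs (GGTTCGA and CACGTG) and 2 alternatives were added after values were seen. A few results on single genes are not reported here.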

Additional observations from a re-analysis of the deposited data

How the results depend on the processing

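The median sum per region (mean of the libraries) was 7.71, the footprint density of members over others 0.898, the GC difference 2.63 percentage points and the ratio of low-FDR gap bases 2.97. No direction of a comparison, taken as the mean of the libraries, reversed under the 11 alternatives. Counts of regions, sums and shares of nearest genes have no direction that could reverse. Of 97 values 41 stayed within the spread between libraries, the interval or 1.5 times the count. With gaps of at most 5 kb there were 137 regions (0.634% of genes nearest, sum 6.83, footprint ratio 0.815, GC 1.98, gap ratio 2.62), and at 25 kb 454 (2.12%, footprint ratio 0.982, GC 2.88, gap ratio 1.91). The footprint ratio at 25 kb had an SD between libraries of 0.029, so it lay within 1 SD of no difference. A reciprocal overlap of 50% left 66 (0.308%, GC 2.26), the shorter lists 70 (0.336%, sum 8.31, footprint ratio 0.744, GC 0.943, gap ratio 2.82) and a minimum of 10 peaks 60 (0.288%, sum 11.9, footprint ratio 0.839, gap ratio 4.07). A TSS window of 2.5 kb gave a GC difference of 2.39 and a gap ratio of 3.22, and windows at genes of every type 7.05 (sum), 0.858 (footprint ratio), 2.42 (GC) and 3.51 (gap ratio). Added after values were seen, leaving out peaks at tRNA genes gave GC 2.92 with 201 regions, and counting peaks at most 100 bp apart as 1 gave GC 2.27, gap ratio 3.11 and 153 regions. Leaving out 1 library, which also drops the need for a partner, gave 719 to 1284 regions, 3.19% to 5.44% of genes, sums of 5.07 to 5.70, footprint ratios of 0.724 to 0.768 and GC differences of 0.562 to 0.599. All 15 of the highest regions overlapped a region under 5 of the 11 alternatives, and 10 to 14 of them under the other 6. Causes were not tested. No paired analysis was possible because there is a single group. Depth is unknown, so how far it limits weak peaks could not be told.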
